A study of Homo sapiens with 6 samples.

Results

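The genes described here make up the machinery of apoptosis: the BCL2 family, the caspases, the inhibitor of apoptosis proteins (IAPs) and the adaptors of death receptors. They were chosen by name, as a list of 35 genes, and 22 of them had a probe set of that name, out of 14884 genes tested. RNA of NR1D1 KO and control MDA-MB-231 cells, a human triple-negative breast carcinoma line, was read on GeneChip whole-transcript arrays, 3 in each group. NR1D1 encodes REV-ERBα, a heme-binding nuclear receptor that represses transcription and forms part of the circadian clock. Both groups had received 200 µM hydrogen peroxide for 72 h, so every value below is from cells under oxidant stress, and no untreated arrays were analysed here. The titles call the arrays biological replicates, but the labels name no separate cultures or clones and do not say how the knockout was made, so a p-value reflects only how far these arrays differ, some of which may be technical.

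Apoptosis is run by cysteine proteases, the caspases, which lie dormant until they are brought together on a platform. In the mitochondrial route, BH3-only proteins sense damage and disarm the pro-survival BCL2 proteins, which frees BAX and BAK1 to open pores in the outer mitochondrial membrane. Cytochrome c then escapes and assembles APAF1 into the apoptosome. In the death receptor route, FADD gathers caspases directly, and CFLAR (FLIP) blocks them there. The IAPs act on both routes, XIAP by binding active caspases and BIRC2 (cIAP1) by attaching ubiquitin to the signalling complex of the TNF receptor. Many of these proteins are controlled by cleavage, binding or turnover, none of which an RNA array reads.

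The 6 arrays had medians between 5.18 and 5.22 on the log2 scale. Over the tested genes they correlated at 0.991 to 0.993 within and 0.982 to 0.985 between the groups. NR1D1 itself had no named probe set, so the knockout was not checked from its transcript. Of 6 genes fixed as markers of the line 5 were measured, and all 5, VIM, CD44, AXL, EGFR and MSN, averaged between 9.01 and 12.03 in either group, with VIM higher and CD44 lower in NR1D1 KO arrays. The hormone receptor genes ESR1 (5.19 in NR1D1 KO and 5.19 in control) and PGR (4.05 and 3.99) lay below the median gene level of 6.13. Of the other luminal epithelial markers measured, FOXA1 (4.96 and 5.05) and ERBB3 (5.51 and 5.92) also lay below it. EPCAM (7.62 and 7.22), KRT19 (8.57 and 8.15) and GATA3 (6.75 and 7.48) lay above it. Of 4 measured leukocyte markers CD68 was lower in NR1D1 KO arrays, and 0 of 2 fibroblast markers passed the test. The summed log2 level of those 4 leukocyte markers ranged from 25.1 to 25.9 in NR1D1 KO and from 25.7 to 26.3 in control arrays. Of 7 measured luminal epithelial markers EPCAM and KRT19 were higher and GATA3 and ERBB3 lower, and their sum ranged from 42.4 to 42.9 in NR1D1 KO and from 42.8 to 43.2 in control arrays. The part of these markers in the results below was not tested. A fold difference in a bulk culture cannot tell less RNA per cell from fewer cells that make it.

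Of the 22 measured members 2 fell in NR1D1 KO cells, XIAP and CFLAR, and 0 rose (limma with Benjamini-Hochberg adjustment over all genes, threshold 0.05). That is 9.09% of the members, beside 9.49% of all genes tested, so the apoptosis genes were called about as often as any gene. For falls alone the share was 4.74% over all genes, and it was 4.74% for rises. NR1D1 KO and control values did not overlap for 5 members, or 22.7%, beside 28.7% of all genes. Of these 5 members 1 was higher and 4 were lower in NR1D1 KO, where over all genes the shares were 15.1% higher and 13.6% lower. The members' median log2 change was -0.07, and that of all genes was 0.0039. Both genes that passed restrain caspases, and the remaining 20 members had adjusted p of 0.0625 or more. At an unadjusted p under 0.05, 4 members were lower (XIAP, CFLAR, BIRC2 and PMAIP1) and 1 was higher (MCL1). These are 22.7% of the members, beside 22.8% of all genes at that p (11.9% higher and 10.9% lower).

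**Figure D1:**
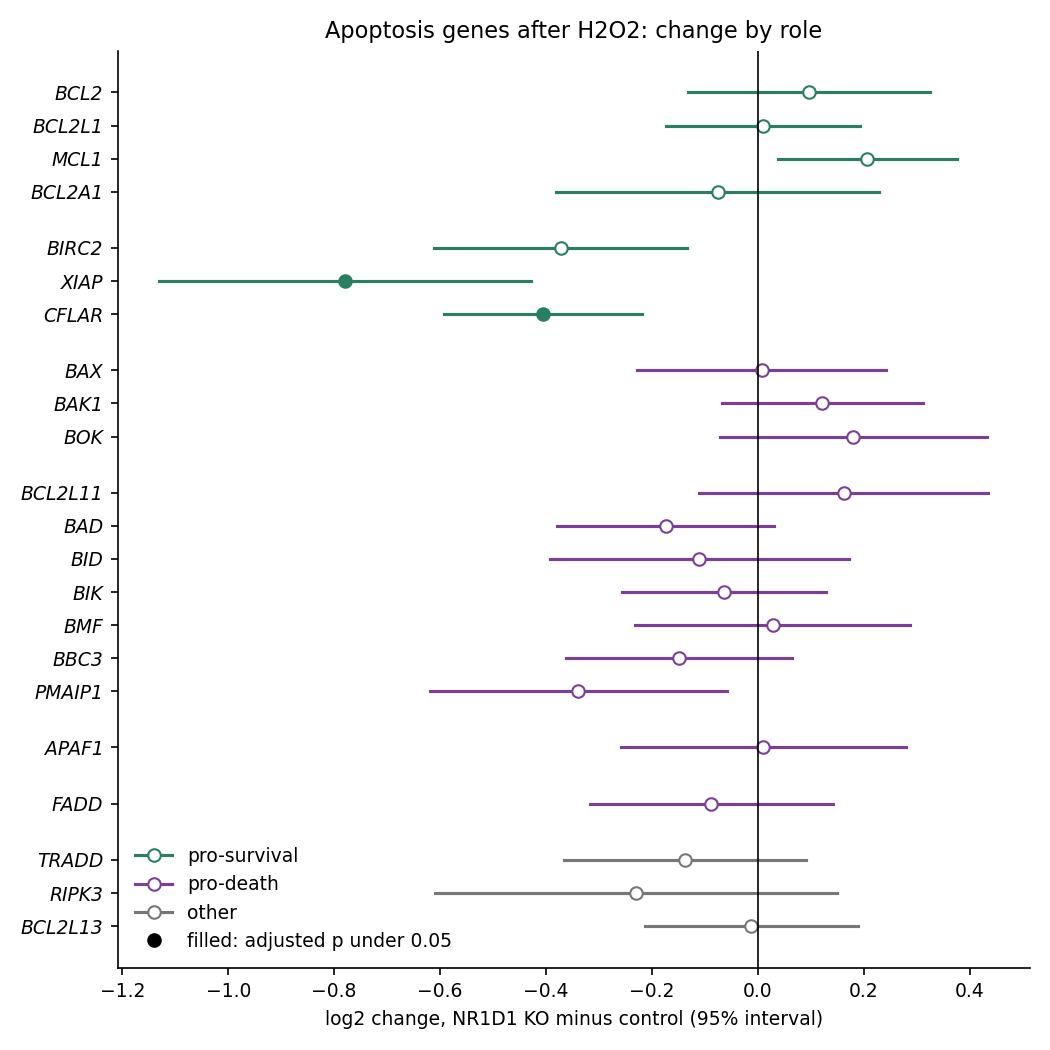
Log2 change between 3 NR1D1 KO and 3 control arrays (x axis) for the 22 measured genes (y axis), grouped by role, with 95% intervals from the limma fit. XIAP and CFLAR, drawn filled, had adjusted p under 0.05. The intervals of MCL1, BIRC2 and PMAIP1 also exclude 0 before adjustment over all genes.

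The IAPs and FLIP of the member list had the lowest median log2 change of the roles with measured genes. Of their 4 genes, BIRC3 had no named probe set. The 3 measured ones, XIAP, CFLAR and BIRC2, were each lower on every NR1D1 KO array than on any control array. Over all genes 13.6% were. Their median log2 change was -0.41. The members were chosen with earlier results of these data known, and this pattern was not tested. Of 3 measured IAP genes off the member list 0 passed, with log2 changes of 0.30 (BIRC5), 0.08 (BIRC6) and -0.15 (BIRC7). XIAP, which binds and blocks active caspases, measured 6.03, 6.40 and 6.17 on the NR1D1 KO arrays (replicates 1, 2 and 3), against 6.93, 7.28 and 6.72 on the control arrays (log2). Its lowest control array lay above its highest NR1D1 KO array, although the values within each group were spread more widely than for most members. The means were 6.20 ± 0.185 in NR1D1 KO and 6.98 ± 0.281 in control (SD, n = 3 each), a 1.72-fold fall (log2 change -0.78, SE 0.153, 95% interval -1.13 to -0.43, limma adjusted p = 0.0168). The adjusted p was 0.0502 without control replicate 1, 0.0590 without NR1D1 KO replicate 1 and 0.0532 without NR1D1 KO replicate 3.

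CFLAR encodes FLIP, a relative of the caspases without protease activity that acts on the initiator caspases gathered by FADD. It measured 7.89, 7.88 and 7.72 on the NR1D1 KO arrays, against 8.27, 8.21 and 8.23 on the control arrays (log2). The control values were nearly equal, and each NR1D1 KO value lay below all of them. The means were 7.83 ± 0.0919 in NR1D1 KO and 8.24 ± 0.0265 in control (SD, n = 3 each), a 1.33-fold fall (log2 change -0.41, SE 0.0815, 95% interval -0.59 to -0.22, limma adjusted p = 0.0183). Its adjusted p was 0.0702, 0.0535 and 0.0671 without control replicates 1, 2 and 3 in turn, and 0.0541 without NR1D1 KO replicate 3.

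BIRC2, the ubiquitin ligase cIAP1, measured 8.60, 8.84 and 8.58 on the NR1D1 KO arrays, against 8.91, 9.09 and 9.13 on the control arrays (log2). The groups did not overlap, but the gap between the highest NR1D1 KO and the lowest control array was small. Its log2 change was -0.37 (95% interval -0.61 to -0.13), and it missed the threshold with a limma adjusted p of 0.0625. It passed when fewer dim genes were tested (adjusted p = 0.0336 without the dimmest 25% and 0.0175 without the dimmest 50%), with a trend and robust prior (0.017), with a second quantile normalization (0.0466) and without NR1D1 KO replicate 2 (0.0496).

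**Figure D2:**
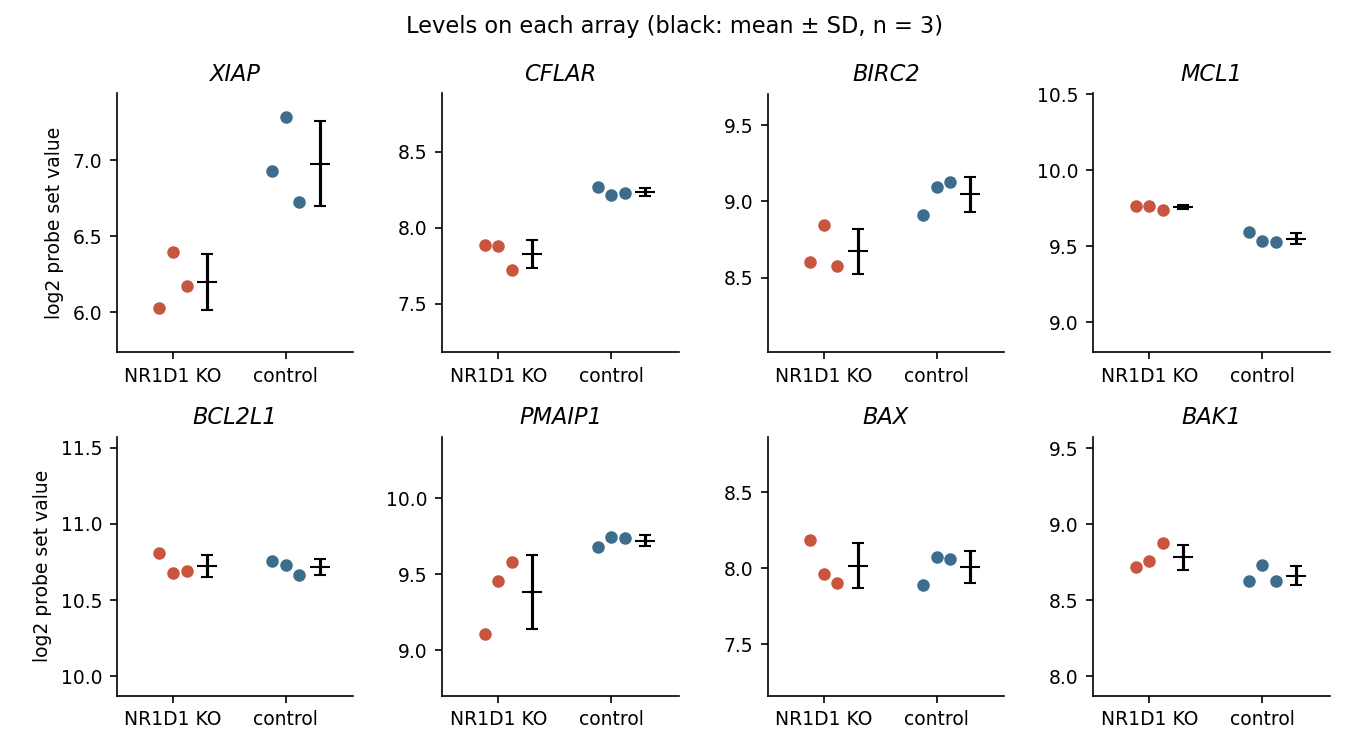
Log2 probe set value (y axis) on each of 3 NR1D1 KO (red, left) and 3 control (blue, right) arrays for 8 members, with the mean and SD in black. All panels span the same log2 range. XIAP, CFLAR, BIRC2 and PMAIP1 were lower on all NR1D1 KO arrays and MCL1 was higher, while the groups overlapped for BCL2L1, BAX and BAK1.

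XIAP lies on chromosome X among genes that were also lower. Of the 10 measured coding genes on each side of it in RefSeq gene order, 19 of 20 had a log2 change below 0, 9 of them were called lower and 0 higher, and their median was -0.40. The changes of these neighbours ran from -0.87 to 0.16, and 2 of them were below the change of XIAP itself. Around CFLAR, on chromosome 2, 18 of 20 neighbours were below 0 with a median of -0.07, and 3 were called lower. Around BIRC2, on chromosome 11, 9 of 20 were below 0 with a median of 0.04. Of all genes tested, 51.0% had a log2 change above 0 and 4.74% were called lower. All 3 genes lay below the median of their neighbours, which was likely from the start because they were picked as low members. The part of the neighbourhood in these results was not tested.

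**Figure D3:**
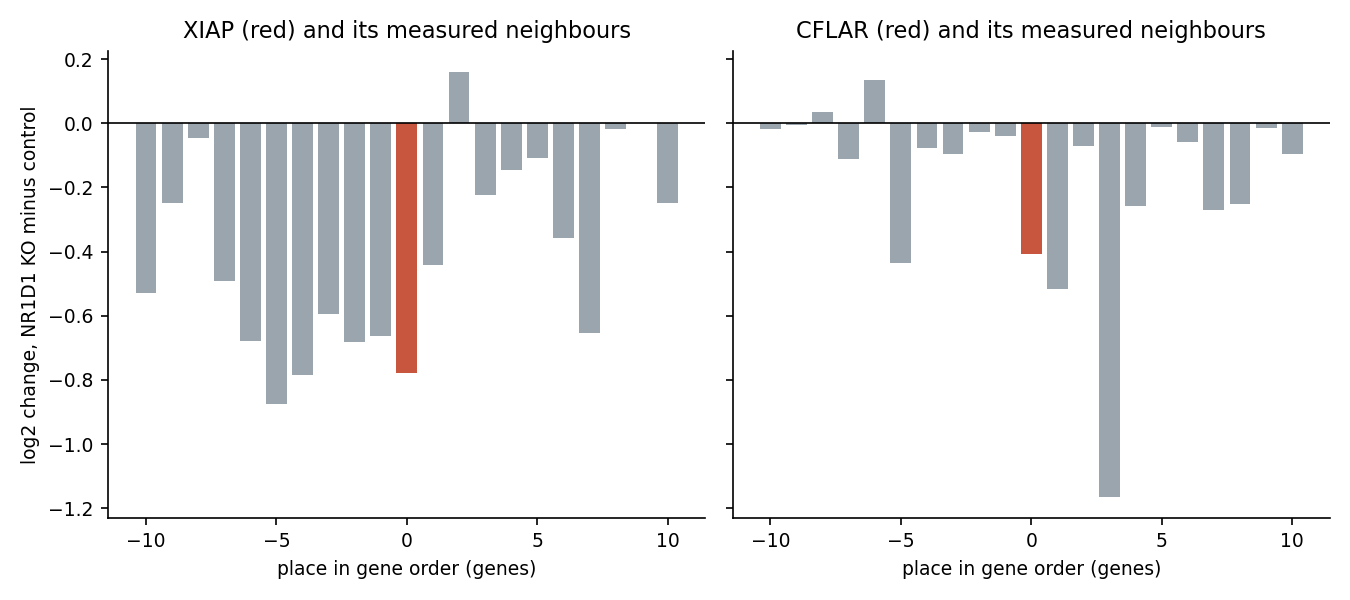
Log2 change, NR1D1 KO minus control (y axis), of XIAP (left) and CFLAR (right), in red, and of the 10 measured coding genes on each side in gene order (x axis, in genes, not distance), in grey. Of the neighbours, 19 of 20 lay below 0 around XIAP and 18 of 20 around CFLAR, with medians of -0.40 and -0.07.

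Promoters of XIAP and CFLAR are shown because these 2 genes passed the test and because both hold AGGTCA, the core half-site that REV-ERBα and other nuclear receptors bind. The sequences are from RefSeq (GRCh38.p14) and run from 250 bases before to 50 after a listed start, 5′ to 3′ on the + strand. They are chrX:123859564-123859863 for XIAP, chr2:201140025-201140324 for CFLAR at a downstream start and chr2:201118466-201118765 for CFLAR at its most upstream start. Capitals mark AGGTCA or its reverse complement in the first and second sequence, and in the third a match to the κB consensus, the site that NF-κB binds.
XIAP: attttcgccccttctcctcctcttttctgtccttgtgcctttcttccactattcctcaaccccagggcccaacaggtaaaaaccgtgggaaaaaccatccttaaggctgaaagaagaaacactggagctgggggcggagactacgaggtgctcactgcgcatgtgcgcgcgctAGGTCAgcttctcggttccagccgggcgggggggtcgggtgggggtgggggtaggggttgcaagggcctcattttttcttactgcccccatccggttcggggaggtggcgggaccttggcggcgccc
CFLAR, downstream start: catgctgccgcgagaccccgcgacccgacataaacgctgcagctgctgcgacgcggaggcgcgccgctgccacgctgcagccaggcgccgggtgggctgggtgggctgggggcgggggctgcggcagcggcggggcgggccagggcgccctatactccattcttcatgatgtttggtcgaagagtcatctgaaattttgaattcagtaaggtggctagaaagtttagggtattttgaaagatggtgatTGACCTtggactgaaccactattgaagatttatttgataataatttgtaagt
CFLAR, upstream start: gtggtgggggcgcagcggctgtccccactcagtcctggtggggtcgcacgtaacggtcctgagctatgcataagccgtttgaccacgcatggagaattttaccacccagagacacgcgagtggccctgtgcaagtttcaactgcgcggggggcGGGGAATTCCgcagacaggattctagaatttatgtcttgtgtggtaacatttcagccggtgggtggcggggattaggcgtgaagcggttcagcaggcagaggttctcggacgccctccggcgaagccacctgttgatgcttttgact
Counted from the start, the half-site began at position -77 in the XIAP window and at -2, on the opposite strand, in the CFLAR window. The κB match GGGGAATTCC began at -97 of the upstream CFLAR start. RefSeq lists 3 partly overlapping XIAP windows, which together hold 2 different half-sites, and 4 windows for CFLAR, of which 1 holds it.

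Both strands were searched in the windows of 18 members that have one. The half-site was found in 4 of them, XIAP, CFLAR, BMF and BCL2L13, and neither BMF nor BCL2L13 passed the test. It occurred for 16.5% of all 27305 genes with a window. The 18 members have 33 windows and all genes have 35093, so the members have more windows per gene. The REV-ERB response element (RORE) consensus, an extended form of this half-site that can overlap it, was found for 0 of the 18 members and for 0.392% of all genes with a window. The κB consensus was found for 2 of the 18 members, CFLAR and BMF, and for 7.09% of all genes. A related form, narrower at some positions and wider at another, was found for 0 of the 18 and for 1.71% of all genes. These matches describe letters in these windows, and no binding was measured.

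The pro-survival BCL2 proteins hold BAX, BAK1 and the BH3-only proteins in check. Of 5 on the list, BCL2L2 had no named probe set, and 0 of the 4 measured passed the test, with log2 changes from -0.08 to 0.21 and a median of 0.05. MCL1, a short-lived guardian of mitochondria, measured 9.77, 9.76 and 9.74 on the NR1D1 KO arrays, against 9.59, 9.53 and 9.53 on the control arrays (log2). Replicates agreed closely and the groups did not overlap, but the log2 change was small, 0.21 (95% interval 0.04 to 0.38), with a limma adjusted p of 0.134. It passed in fits with a trend and robust prior (adjusted p = 0.0317) or without the dimmest 50% of genes (0.0436).

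BCL2L1, which encodes BCL-xL, measured 10.81, 10.68 and 10.69 on the NR1D1 KO arrays, against 10.76, 10.73 and 10.66 on the control arrays (log2). The groups overlapped, and the 95% interval of the log2 change ran from -0.17 to 0.19. BCL2 itself measured 6.93, 7.14 and 6.93 on the NR1D1 KO arrays, against 7.03, 6.78 and 6.90 on the control arrays, again with overlap. Its interval ran from -0.13 to 0.33 (adjusted p = 0.637). BCL2A1, a pro-survival gene known as an NF-κB target, was dim, at 3.68 ± 0.08 in NR1D1 KO and 3.75 ± 0.267 in control (SD, n = 3 each, adjusted p = 0.798). With no detection calls at hand, a difference in so dim a gene may be understated.

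The pore-forming effectors were all 3 measured and 0 passed. BAX measured 8.18, 7.96 and 7.90 on the NR1D1 KO arrays, against 7.89, 8.08 and 8.06 on the control arrays (log2). The ranges crossed, and the 95% interval of the log2 change was -0.23 to 0.24 (adjusted p = 0.978). BAK1 measured 8.72, 8.76 and 8.88 on the NR1D1 KO arrays, against 8.63, 8.73 and 8.63 on the control arrays. Control replicate 2 lay above the lowest NR1D1 KO array, and the interval was -0.07 to 0.31 (adjusted p = 0.447). BOK, a relative of both that the pro-survival proteins restrain little, had a log2 change of 0.18 with an interval of -0.07 to 0.43 (adjusted p = 0.389).

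Of 8 BH3-only genes 7 were measured, all but HRK, and 0 passed the test, with a median log2 change of -0.11. PMAIP1 (NOXA), which binds MCL1 and is a p53 target, stood lowest. It measured 9.11, 9.46 and 9.58 on the NR1D1 KO arrays, against 9.68, 9.75 and 9.74 on the control arrays (log2). The groups did not overlap, but NR1D1 KO replicate 1 lay far below the other two. The log2 change was -0.34 (95% interval -0.62 to -0.06, limma adjusted p = 0.139), and -0.20 without that array (adjusted p = 0.224). BBC3 (PUMA), a p53 target that binds all pro-survival BCL2 proteins, had a log2 change of -0.15 (interval -0.36 to 0.06). BAD, which is held inactive by survival kinases, had -0.17 (interval -0.38 to 0.03), and BID, which links death receptors to mitochondria once cleaved, -0.11 (interval -0.39 to 0.17). BCL2L11 (BIM) had 0.16 (interval -0.11 to 0.44). BIK, a BH3-only protein of the endoplasmic reticulum, was dim, at 4.67 in NR1D1 KO and 4.73 in control, and had -0.06 (interval -0.26 to 0.13). BMF, which is tied to the cytoskeleton, had 0.03 at its brighter probe set. A second, dimmer probe set of BMF read -0.50 (adjusted p = 0.111 over all named probe sets), so the probe sets of this gene disagree.

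Below the mitochondrion, few genes could be read. APAF1, the scaffold of the apoptosome, averaged 7.78 ± 0.183 in NR1D1 KO and 7.77 ± 0.142 in control (SD, n = 3 each, 95% interval of the log2 change -0.26 to 0.28). CYCS (cytochrome c) and DIABLO, which lifts the block by IAPs, had no named probe set, nor did CASP2, CASP6, CASP8, CASP9 and CASP10 or the inflammatory CASP1 and CASP4. No caspase on the list was therefore measured. FADD, the adaptor that recruits initiator caspases to death receptors, averaged 7.98 ± 0.17 in NR1D1 KO and 8.07 ± 0.0408 in control (adjusted p = 0.672). Its 2 probe sets read log2 changes of -0.09 and -0.11.

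TRADD, the TNF receptor adaptor, had a log2 change of -0.14 (95% interval -0.37 to 0.09, adjusted p = 0.48). RIPK3, the kinase of necroptosis, was dim, at 3.89 ± 0.357 in NR1D1 KO and 4.12 ± 0.105 in control (SD, n = 3 each, adjusted p = 0.475). Its kinase partner RIPK1 had no named probe set. BCL2L13, an atypical BCL2 relative that also serves as a mitophagy receptor, had a log2 change of -0.01 (interval -0.21 to 0.19).

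The pro-survival and the pro-death genes were set side by side. The pro-survival side held the BCL2 proteins, the IAPs and FLIP. The pro-death side held the effectors, the BH3-only genes, APAF1 and FADD. Of 7 measured pro-survival genes 2 fell and 0 rose, with 3 changes above 0 and 4 below (median -0.08 on the log2 scale). Of 12 measured pro-death genes 0 passed, with 6 changes above 0 and 6 below (median -0.03). The shares called were 28.6% and 0%, beside 9.49% of all genes (4.74% lower). The first share rests on 2 genes, and this difference between the sides was not tested. The other 3 measured members, TRADD, RIPK3 and BCL2L13 (log2 changes -0.14, -0.23 and -0.01), were placed on neither side. How far the contrast depends on that assignment was not tested. The median of pro-survival less that of pro-death genes, each gene taken relative to its control mean, was -0.08, -0.01 and 0.01 on the NR1D1 KO arrays, against 0.05, -0.02 and 0.02 on the control arrays. These values overlapped. The difference of the 2 median changes was -0.05, and its sign turned when control replicate 1 was left out (0.10), while without control replicate 3 it was -0.14. Within the pro-survival genes the median was -0.41 for XIAP, CFLAR and BIRC2 and 0.05 for the 4 BCL2 proteins, a difference that was not tested.

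Other genes of cell death signalling were taken from a list of 75, of which 43 were measured. Of these 43, 6 fell and 1 rose, or 16.3%, beside 9.49% of all genes, and their median log2 change was 0.0029. Among adaptors and regulators of signalling 4 of 14 measured genes fell, or 28.6%, and 0 rose, where 4.74% of all genes fell. Of 17 other BCL2 family and mitochondrial genes 2 fell and 1 rose. Elsewhere 0 of 8 genes of cell death execution, 0 of 3 caspases and IAPs and 0 of 1 death receptor ligands passed. NR1D1 KO and control values did not overlap for 34.9% of the 43 genes, beside 28.7% of all genes. A limma unadjusted p under 0.05 was reached by 27.9% of the 43, beside 22.8% of all genes. The list was chosen with earlier results of these data known, and these differences were not tested. Without any one of the control arrays, or without NR1D1 KO replicate 2 or 3, the calls over the 43 genes numbered 3.

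TRAF1, an adaptor that binds the cIAPs, measured 6.63, 6.15 and 6.17 on the NR1D1 KO arrays, against 7.61, 7.62 and 7.56 on the control arrays (log2). The groups were nearly a whole log2 unit apart at their closest, the widest gap among the genes described here, with a log2 change of -1.28 (95% interval -1.58 to -0.98, limma adjusted p = 0.000827). Its neighbours on chromosome 9 went the other way, with 16 of 20 above 0 and a median of 0.30. CYLD, a deubiquitinase that dismantles the ubiquitin chains cIAPs and their partners build, measured 7.52, 7.87 and 7.74 on the NR1D1 KO arrays, against 8.26, 8.45 and 8.33 on the control arrays. All NR1D1 KO values were lower, and the fall was 1.55-fold (adjusted p = 0.00953).

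TRAF3, which works with the cIAPs to hold back noncanonical NF-κB signalling, fell 1.31-fold (adjusted p = 0.0268). RNF31, the catalytic subunit of the linear ubiquitin ligase, fell 1.27-fold (adjusted p = 0.0396), and the accessory subunits of that ligase, SHARPIN and RBCK1, had adjusted p of 0.8 and 0.483. TRAF3 missed the threshold when any array but NR1D1 KO replicate 1 was left out (adjusted p of 0.0760 to 0.0924), and RNF31 when any of the 6 arrays was (0.0524 to 0.128).

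BCAP31, an endoplasmic reticulum protein that caspases cleave, measured 8.56, 8.53 and 8.68 on the NR1D1 KO arrays, against 9.33, 9.30 and 9.33 on the control arrays (log2). The replicates were tight and well apart, with a 1.66-fold fall (adjusted p = 0.00107). It too lies on chromosome X, where 18 of its 20 neighbours were below 0 with a median of -0.14, and 3 were called lower. Of them 0 were as low as BCAP31, which was likely from the start because it was picked as a low gene. The lowest neighbour was at -0.70, beside -0.73 for BCAP31. BCL2L15, a little-studied BCL2 relative, fell 1.4-fold at a dim level, 3.95 ± 0.235 in NR1D1 KO and 4.43 ± 0.047 in control (SD, n = 3 each, adjusted p = 0.042). BAG3, a partner of HSP70 that supports survival under protein stress, was the 1 gene that rose, 1.26-fold, to 8.75, 8.86 and 8.88 on the NR1D1 KO arrays, against 8.47, 8.48 and 8.54 on the control arrays (adjusted p = 0.0338). BAG3 missed the threshold when any array but NR1D1 KO replicate 1 was left out (0.0911 to 0.11), and BCL2L15 likewise when any array but that one was (0.0901 to 0.126). BIRC5 (survivin), an IAP relative of dividing cells, averaged 8.44 ± 0.126 in NR1D1 KO and 8.13 ± 0.0793 in control (adjusted p = 0.0878).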

How the data were processed

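Total RNA was amplified with a GeneChip whole-transcript kit and biotin-labelled, per the labels' protocols. The deposited table holds values of 53617 probe sets on each array, read as log2 summaries from their range of 1.16 to 13.75. Array medians were nearly equal, and the values were used as deposited. How the authors corrected background and summarized probes is not given in the sources used here. An error in the log2 scale would change every fold. Probe sets were named through the platform annotation: 16098 had 1 symbol, all matched to RefSeq by gene ID, 0 had several and 37519 had none and are unnamed here. The probe set with the highest mean stood for each of 14884 genes, with no filter on low values.

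The 3 NR1D1 KO and 3 control arrays, grouped by their titles, were compared by the linear models of limma (version 3.58.1, R version 4.3.3, moderated with eBayes, two-sided, Benjamini-Hochberg adjustment over all genes, threshold 0.05). The fit was tested on simulated data. The number of arrays limits the precision, with a median standard error of 0.101 (log2). The members and lists were chosen with earlier results of these data known, and the neighbour and promoter searches were added after the fit was seen. Every member is named, with array values for those past or near the threshold and 7 fixed genes (those of them measured). Of the other pathway genes, those past the threshold are given, and BIRC5, BIRC6, BIRC7, SHARPIN and RBCK1 were chosen after their values were seen. PMAIP1 is given with array values outside that rule. Alternatives were other normalizations, filters, probe set rules, priors and weights, a block for the replicate number, and leaving out each array. Figures were drawn with matplotlib 3.10.9.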

Additional observations from a re-analysis of the deposited data

How the results depend on the processing

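XIAP and CFLAR kept their direction under all 15 alternatives and their calls under the 9 that kept all 6 arrays. Leaving out 1 array gave log2 changes of -0.91 to -0.63 for XIAP and -0.44 to -0.35 for CFLAR, with 3 and 2 of 6 such fits past the threshold. Without 1 array the members called numbered 0 to 3, all lower (0 to 3) and 0 higher, the genes called 723 to 1049, against 1412 with all arrays, and the other pathway genes called 3 to 6. Fewer arrays leave less to estimate the spread from. The members called were 4, of which 1 higher, both without the dimmest 50% of genes and with a trend and robust prior. At an unadjusted p under 0.05, MCL1 was the 1 member higher.

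The median log2 change of pro-survival members was -0.18 without the dimmest 25% or 50% of genes, where BCL2A1 drops out, and -0.223 to 0.0302 without 1 array. That of pro-death members was 0.0071 under either filter, where BIK drops out, -0.0819 with the mean of a gene's probe sets, and -0.0855 to 0.0276 without 1 array. Their difference was -0.19 under either filter, 0.00599 with the mean of probe sets, 0.0181 with array weights, and -0.14 to 0.10 without 1 array. Its sign is thus not settled by these data.

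Signs turned only for members whose log2 changes in the fit described above lay from -0.11 (BID) to 0.03 (BMF). With a second quantile normalization BAX had -0.0037 and APAF1 -0.0021, with array weights BAX had -0.0212 and BCL2L13 0.0014, and with the mean of its probe sets BMF had -0.24. Without 1 array the log2 changes ran from -0.0319 to 0.0333 for BCL2L1, -0.223 to 0.0378 for BCL2A1, -0.0773 to 0.0632 for BAX, -0.232 to 0.0143 for BID, -0.0905 to 0.121 for BMF, -0.0903 to 0.0884 for APAF1 and -0.0675 to 0.0328 for BCL2L13.

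Same-numbered arrays of the groups did not deviate together (correlations of 0.0547, 0.0681 and -0.106 over genes), so the numbers were not taken as pairs. With a replicate block 1050 genes, 2 members and 4 other pathway genes were called, and TRAF3, BAG3 and RNF31 missed the threshold (adjusted p of 0.0617, 0.0701 and 0.08). RNF31 also missed it with arrays centred on their medians (0.0503) or weighted (0.0503).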
